A study of Drosophila melanogaster with 2 samples.

Results

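The genes described here are 10 genes of the Drosophila germ line and of the piRNA pathway: vas, piwi, aub, AGO3, rhi, tapas, squ, gcl, nos and osk. They were chosen by name, with earlier results of these data known, from 13945 protein-coding genes on 6 chromosome arms. For each, the summits of ADD1-GFP peaks within 500 bp of an annotated start, here called promoter summits, or between the ends of the gene were collected. ADD1, a chromatin protein named for its ADD domain and known as a partner of the heterochromatin protein HP1a, was profiled by chromatin immunoprecipitation and sequencing. The material was whole embryos of Drosophila melanogaster, collected between 0 and 24 h, males and females pooled. All embryos came from 1 transgenic line that carries GFP at the C terminus of ADD1, and an antibody against GFP was used. There was 1 group with 2 biological replicates and no second condition, so no contrast was tested, and the germ cells are a small part of the tissue. The peak lists therefore cannot tell germ cells from somatic cells.

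The authors deposited 1 list for each replicate and 1 joint list, each of 30000 peaks, and a list of 7944 peaks that passed their threshold on the irreproducible discovery rate (IDR). Each peak carries a signal value of the authors, on a scale that is not stated, which ranged from 130.1 to 9003 in the IDR list with a median of 243.1. A rank of 1 is the highest signal in a list. The number of reads was not given in the sources used here, so the depth behind each peak is unknown.

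The piRNA pathway protects the germ line from transposons. Small RNAs of this class guide the PIWI proteins, of which Piwi acts in the nucleus and Aubergine (aub) and AGO3 cut RNA in the cytoplasm in a cycle called ping-pong. That cycle takes place in the nuage, a perinuclear structure that contains the RNA helicase Vasa and Tudor domain proteins such as Tapas, together with Squash (squ). Rhino (rhi), a germ line relative of HP1a, marks the genomic clusters from which many precursors are transcribed. Oskar (osk) assembles the germ plasm at the posterior of the egg, germ cell-less (gcl) is needed for the primordial germ cells to form there, and Nanos (nos) is a translational repressor of those cells.

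The 100 bases before the 5' end were read from genome Release 6 as examples for 3 genes with a promoter summit and 2 without. They are written 5' to 3' on the strand of the gene, and capitals mark the word CGATA, the core of the site of the insulator protein BEAF-32, on either strand. Capitals also mark TATCGATA, a longer word that DREF and BEAF-32 bind and that contains this core. The 100 bases of vas are also those before solo, and those of squ are also those before grp.
vas (chr2L:15061556-15061655, plus strand): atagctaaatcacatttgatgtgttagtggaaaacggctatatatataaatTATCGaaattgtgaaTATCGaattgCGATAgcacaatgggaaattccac
squ (chr2L:16679954-16680053, plus strand): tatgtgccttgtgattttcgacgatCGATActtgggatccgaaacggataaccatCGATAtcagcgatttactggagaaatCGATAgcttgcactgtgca
nos (chr3R:19157138-19157237, plus strand): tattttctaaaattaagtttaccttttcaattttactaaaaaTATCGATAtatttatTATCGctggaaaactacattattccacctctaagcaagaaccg
piwi (chr2L:10987421-10987520, minus strand): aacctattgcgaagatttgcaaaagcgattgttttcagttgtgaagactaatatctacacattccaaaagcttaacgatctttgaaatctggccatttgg
aub (chr2L:11001477-11001576, minus strand): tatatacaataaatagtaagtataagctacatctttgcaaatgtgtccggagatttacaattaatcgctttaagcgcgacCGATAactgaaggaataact

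CGATA occurred 3 times before vas, 3 times before squ and 3 times before nos, counted on both strands. TATCGATA reads the same on both strands, so the one before nos holds 2 of its 3 copies. CGATA occurred once before aub and not before piwi. The summit of the vas promoter peak lay within 16 bp of the first base of each of the 3 copies. The copies before nos lie outside the interval of the promoter peak counted for nos. Of the members not printed, AGO3, without a promoter summit, had CGATA 59 and 16 bp before its outermost 5' end. The word lay 48 and 13 bp before the start of gcl. At tapas it lay 33 bp before the second start but not before the outermost 5' end, and at rhi and osk it was absent. It was present in the 300 bp around 45.7% of coding starts. A link between the word and the summits was not tested.

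ADD1 had a promoter summit in the IDR list at 5 of the 10 genes, which were vas, tapas, squ, gcl and nos. Of all protein-coding genes, 26.1% (3638) had one. The 10 genes were chosen by name with earlier results of these data known, so the count is a description that was not tested. The same 5 genes had a promoter summit in the joint list, in replicate 1 and in replicate 2, where 37.9%, 38.0% and 44.7% of coding genes had one. With summits inside the gene added, the count in the IDR list remained 5, and 29.4% of coding genes (4104) were counted in this way. Another 4 genes, piwi, aub, rhi and osk, had no summit of any of the 4 lists at a start or inside the gene, which held for 48.5% of coding genes (6766). AGO3 had weak summits in an intron only, and none of them was in the IDR list. None of the 3 PIWI genes had a promoter summit in any list.

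**Figure D1:**
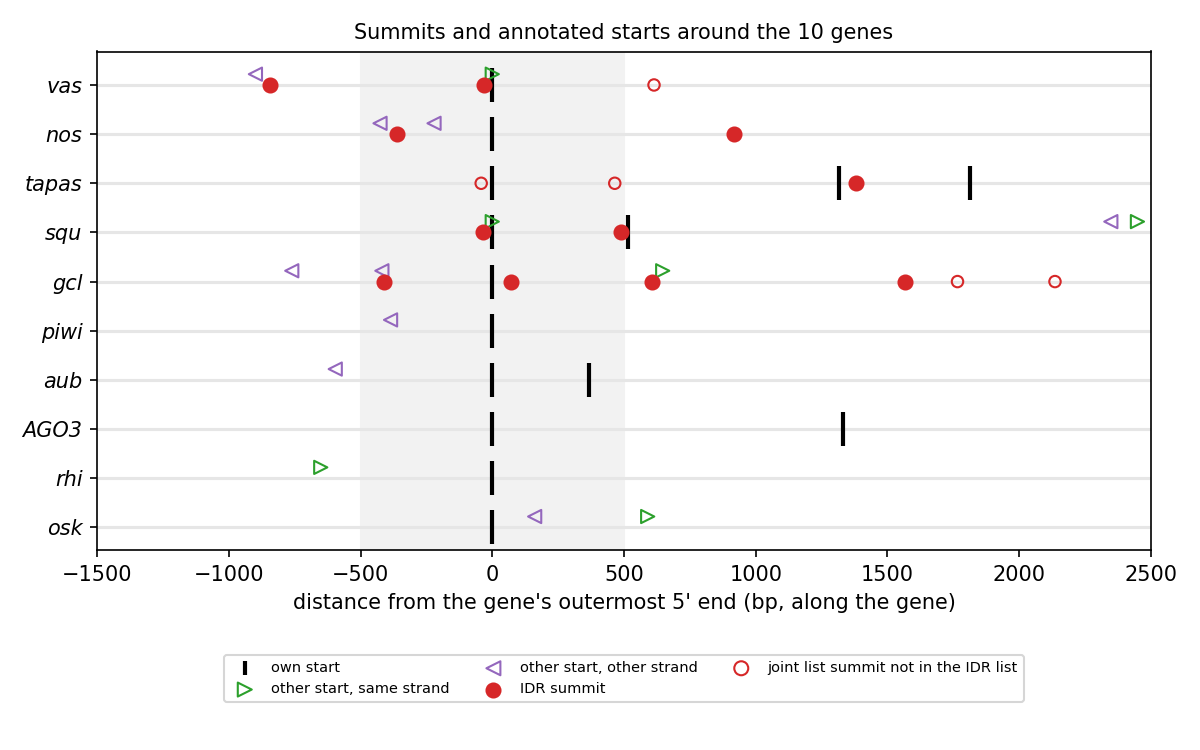
Positions of peak summits and of annotated starts around the 10 genes, in bp along each gene from its outermost 5' end, with the promoter window of that end shaded. Filled circles are IDR summits, open circles are summits of the joint list only, black bars are starts of the gene itself and triangles are starts of other genes. Of the 5 genes in the lower rows none has a summit in the range drawn, and summits deeper in vas lie beyond the right edge.

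The 5 genes held 7 promoter summits. All 7 had a summit within 200 bp in both replicate lists, and the largest shift was 58 bp. Of all IDR peaks 96.4% (7659) had both. At 3 of the 5 genes, vas, squ and tapas, the start nearest to the strongest promoter summit belonged to the gene itself, shared with a second gene at vas and squ. At nos and gcl it belonged to a neighbour on the opposite strand. When a summit was counted for the genes of its nearest start only, nos dropped out and 4 members were left, and 21.7% of coding genes (3025) were counted in this way.

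Vasa is a DEAD-box RNA helicase of the germ plasm and the nuage. Its gene vas (FBgn0283442, 2L, 15061656 to 15074311, plus strand) has 1 annotated start, which it shares with solo, a gene for a cohesion protein of meiosis. The promoter peak (2L, 15061461 to 15061740) had its summit 33 bp upstream of that start, in the interval whose bases are printed above. Its signal was 517.1 in the IDR list (rank 1289), 335.3 in replicate 1 (rank 1073) and 188.9 in replicate 2 (rank 1907). It was therefore among the stronger peaks of every list, above the IDR median.

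A second peak of similar signal lay inside vas (2L, 15067987 to 15068247, signal 566.1, rank 1078), in an intron. Its summit was 29 bp from a start of vig, a gene for an RNA-binding protein that is nested in vas on the opposite strand. Both replicates held it, with a signal of 320.3 (rank 1160) in replicate 1 and 262.7 (rank 1015) in replicate 2. A weaker intronic summit (2L, 15065692 to 15066001) had a signal of 163.5 (rank 6243), with a rank of 4899 in replicate 1 and of 11287 in replicate 2. The strongest peak of the neighbourhood was outside the promoter window, 844 bp upstream of the vas start. It lay 55 bp from the start of TfIIS, which encodes a transcription elongation factor and runs in the opposite direction (signal 721.2, rank 671). The locus thus held separate summits at the starts of vas with solo, of TfIIS and of vig.

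Squash is a nuage protein that interacts with Aubergine. Its gene squ (FBgn0267347, 2L, 16680054 to 16681653, plus strand) lies at the 5' end of grp, which encodes the checkpoint kinase Chk1, and shares its first start with it. The summit 35 bp upstream of the shared start (2L, 16679918 to 16680104) had a signal of 322.8 in the IDR list (rank 2789), 176.5 in replicate 1 (rank 2973) and 153.4 in replicate 2 (rank 2715). A second summit lay 28 bp upstream of the second start of squ (2L, 16680387 to 16680696), in its 5' UTR and in an intron of grp. Its signal was 186.4 in the IDR list (rank 5407), 105 in replicate 1 (rank 5542) and 85.13 in replicate 2 (rank 6105). Both squ summits kept close ranks in the replicates, and the one at the shared start was the stronger in each list.

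Nanos represses translation together with Pumilio. Its gene nos (annotated as nanos, FBgn0002962, 3R, 19157238 to 19160202, plus strand) had the strongest promoter peak of the 10 genes in the IDR list and in replicate 2 (3R, 19156738 to 19156995), while that of vas was stronger in replicate 1. The signal was 674.6 in the IDR list (rank 774), 295.4 in replicate 1 (rank 1326) and 382.1 in replicate 2 (rank 450). The summit was 360 bp upstream of the nos start and 66 bp from a start of CG11779, in the 5' UTR of that gene. CG11779 is transcribed in the opposite direction, and its nearest start is 221 bp from that of nos. Between the summit and the nos start lay the TATCGATA printed above, which begins 58 bp before the start, and no further summit of any list. A peak 919 bp into nos had its summit in an intron of nos and also in an intron of CG11779. It was near the end of the IDR list (signal 134, rank 7711), with a rank of 7321 in replicate 1 and of 12400 in replicate 2.

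Tapas is a Tudor domain protein of the nuage. Its gene (FBgn0027529, 2R, 20319180 to 20325973, plus strand) has 3 starts and no start of another gene within 1000 bp of one of its starts or of the counted summit. The IDR summit lay 63 bp downstream of the second start, 1379 bp from the 5' end of the gene and in the 5' UTR (2R, 20320465 to 20320620). Its signal was 326.2 in the IDR list (rank 2738), 141.9 in replicate 1 (rank 3928) and 189.3 in replicate 2 (rank 1894). At the first start, a weaker summit 42 bp upstream was in the joint list (signal 121.7, rank 8545) and in both replicates, where it ranked 10865 and 8285, but not in the IDR list. Another joint list summit lay 465 bp downstream of the first start (signal 106.5, rank 9898). In replicate 1 the summit there, at 454 bp, was stronger than the upstream one (signal 93.35, rank 6293). In replicate 2 the nearest to it, at 571 bp, was weaker than the upstream one (signal 28.9, rank 19120). The summit at the second start had the highest signal of these in the joint list and in both replicates.

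Germ cell-less is an adaptor of a ubiquitin ligase that acts in primordial germ cells. Its gene gcl (FBgn0005695, 2R, 8724258 to 8728999, plus strand) has 1 start, 419 bp from the start of CG14767 on the opposite strand, and a summit was found near each of them. The stronger lay 9 bp from the CG14767 start and 410 bp upstream of that of gcl (2R, 8723771 to 8724013). Its signal was 292.4 in the IDR list (rank 3185), 152.6 in replicate 1 (rank 3599) and 157.8 in replicate 2 (rank 2611). The summit at gcl itself lay 71 bp downstream of the start, in the 5' UTR (2R, 8724257 to 8724374), with a signal of 142.2 in the IDR list (rank 7252), 70.74 in replicate 1 (rank 8532) and 84.52 in replicate 2 (rank 6152). The summit on the CG14767 side ranked higher in each list. Introns of gcl held a further pair of IDR summits, of which 1 was 41 bp from the start of snoRNA:gcl-a, a small nucleolar RNA gene (signal 185.6, rank 5441), and 1 was 1566 bp into the gene (signal 160.1, rank 6378).

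**Figure D2:**
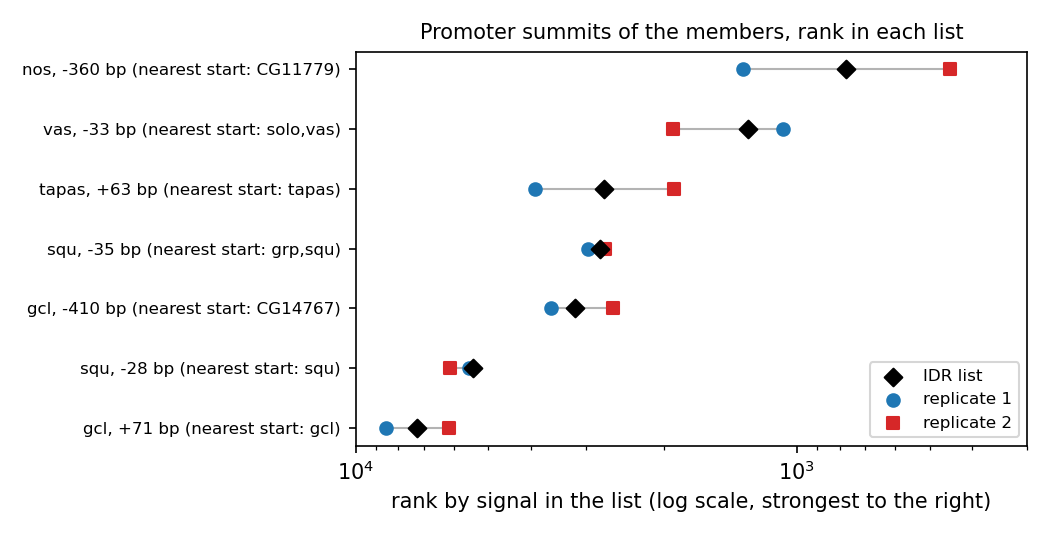
Rank by signal of the 7 promoter summits in the IDR list (diamonds), replicate 1 (circles) and replicate 2 (squares), on a log axis with the strongest ranks to the right, and with the offset from the nearest own start and the genes of the nearest start in each row label. The nos summit ranks highest in the IDR list (774) and the gcl summit at 71 bp lowest (7252).

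Of the 5 genes with a summit, vas and squ share a start with another protein-coding gene, and 35.7% of the 577 coding genes that do so had an IDR promoter summit. A divergent coding start within 1000 bp was present at vas, gcl and nos, and at piwi and aub, which had no summit. Of the 5052 coding genes with such a neighbour, 36.1% had an IDR promoter summit. Both shares stand beside the 26.1% of all coding genes, and the part of the neighbours in the members' counts was not tested.

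Piwi and Aubergine are encoded by neighbouring loci on 2L, with starts 13.7 kb apart. The nearest IDR summit was 20064 bp from the start of piwi (FBgn0004872, 10982205 to 10987420, minus strand), and 80.3% of coding genes had a nearer one. For aub (FBgn0000146, 10997819 to 11001476, minus strand) it was 33752 bp away, and 90.7% had a nearer one. Over all coding genes the median distance was 5580 bp, with quartiles of 405 and 16066 bp. Both genes lay in 1 stretch of 70.8 kb without an IDR summit, which held 17 protein-coding genes in all, such as Nup154 and RpL9. Only 4.95% of the 7938 distances between neighbouring IDR summits were longer, and their median was 4.02 kb. In the same stretch the joint list had 6 summits, replicate 1 had 10 and replicate 2 had 12, so peaks were called there that did not pass the IDR threshold. The nearest summit to aub in any list was one of replicate 2, at 2689 bp (signal 146, rank 2910). The nearest to piwi was also one of replicate 2, at 10159 bp (signal 116.9, rank 4028). In replicate 1 the nearest summits ranked 22319, at 3419 bp from aub, and 9574, at 17040 bp from piwi. Genes with starts close by and on the opposite strand, CG12253 at 386 bp from piwi and lectin-33A at 596 bp from aub, lay in this stretch too.

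AGO3 (FBgn0250816, 3L, 23554593 to 23689640, plus strand) spans 135 kb, of which 37.4% is soft-masked as repetitive, against a median of 8.41% over coding genes. Its nearest IDR summit was 159042 bp from a start, and 99.7% of coding genes had a nearer one. AGO3 lay in a stretch of 376 kb without an IDR summit, which ranked 9 by length. That stretch held only 2 protein-coding genes, AGO3 and ND-MLRQ. The joint list held 4 summits inside the gene, all in introns. The stronger pair lay 24878 and 27852 bp from the nearest start, with signals of 115.7 (rank 9060) and 113.1 (rank 9285). Both were called in each replicate, at ranks 10660 and 10356 in replicate 1 and 9990 and 11391 in replicate 2. These positions were found in both replicates and missed the IDR list, while no list had a summit at an AGO3 start. The part of the repetitive sequence in this result was not tested.

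Rhino and Oskar also lacked summits, at distances that were common among coding genes. The nearest IDR summit to rhi (FBgn0004400, 2R, 17628491 to 17633516, minus strand) was 5626 bp away, inside CG10936, and 50.2% of coding genes had a nearer one. The other lists came as near as 1710 bp in replicate 1 and 2247 bp in replicate 2, at ranks of 19219 and 25016. The nearest IDR summit to osk (FBgn0003015, 3R, 8935126 to 8938395, plus strand) was 3242 bp away (signal 345, rank 2530), and 40.5% of coding genes had a nearer one. Around osk, neither the antisense RNA gene asRNA:CR44020, with a start at 161 bp, nor lncRNA:osk, at 590 bp, had a promoter summit in the IDR list.

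**Figure D3:**
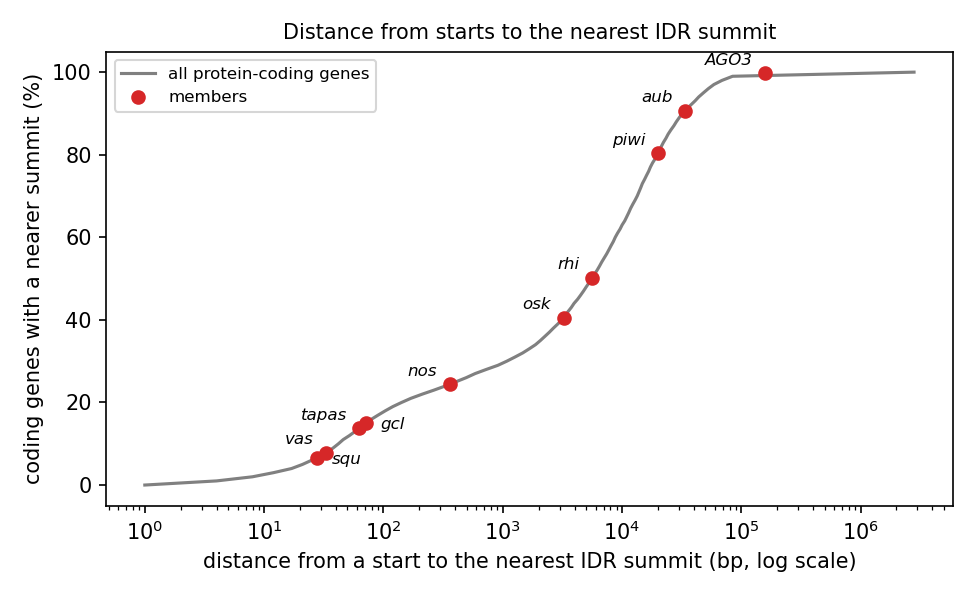
Share of protein-coding genes with a nearer IDR summit (%, vertical axis) against the distance from a gene's starts to the nearest IDR summit (bp, log axis), with the 10 genes as points on the curve of all coding genes. The genes vas, squ, tapas and gcl lie under 100 bp, nos lies at 360 bp, osk and rhi lie near the middle of the curve, and piwi, aub and AGO3 lie at its far end.

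The sequence around the 7 promoter summits was searched for 7 words, on both strands and within 100 bp of the summit. CGATA was found at 5 of the 7, namely at vas, nos, tapas, the squ summit of the shared start and the gcl summit at 71 bp. It was present at 39.7% of all IDR promoter peaks and in the 300 bp around 45.7% of 19253 coding starts. The squ summit of the shared start had 4 copies and that of vas had 3. TATCGATA was at none of the 7, and at 7.89% of IDR promoter peaks. GGTCACACT, the site of M1BP, lay 7 bp from the gcl summit at the CG14767 start, and was present at 5.25% of IDR promoter peaks. GAGAG, the site of GAGA factor, was at 2 summits, those of tapas and of gcl at 71 bp (30.7% of IDR promoter peaks). TATAAA was at 2, that of vas and the gcl summit at the CG14767 start (20.1%). CAGCTG, an E-box, was at 1 (nos; 15.1%), and CAGGTAG, the site of Zelda, was at none (0.743%). At the starts without a summit, piwi had GGTCACACT beginning 2 bp before its start, aub had CGATA 20 bp before its start, and AGO3 had CGATA at both starts. For rhi and osk none of the 7 words was found between 250 bp before and 50 bp after the start.

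The other genes of these pathways were taken as a list of 77 names, which included the 10 genes and gave 76 protein-coding genes. An IDR promoter summit was present at 22 of the 76 (28.9%), close to the 26.1% of all coding genes, and at 17 of the 66 (25.8%) when the 10 genes were left out. By role, it was present at 0 of 3 PIWI genes, 4 of 15 genes of the nuage and ping-pong, 1 of 6 genes of phased piRNA production, and 1 of 13 genes of cluster transcription and export. Among genes of nuclear silencing by Piwi it was 3 of 9, among genes of the germ plasm and of oskar or nanos RNA control 9 of 21, and among genes of germ cell migration and the later germ line 4 of 9. No difference between roles was tested, and the groups are small. The counts by role include the 10 genes, which were chosen with earlier results of these data known. Of the nuage and ping-pong genes with a summit, only papi is not one of the 10, and the 3 PIWI genes all are. Among the germ plasm genes with a summit, gcl and nos belong to the 10. In 33 of the 76 genes no list had a summit at a start or inside the gene. Of all coding genes 48.5% (6766) had none either. The 33 include 9 of the 13 genes of cluster transcription and export, a small group that was not tested. Of the 22 genes with an IDR promoter summit, 17 themselves held the start nearest to their strongest one. The matching count over all coding genes was not made.

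**Figure D4:**
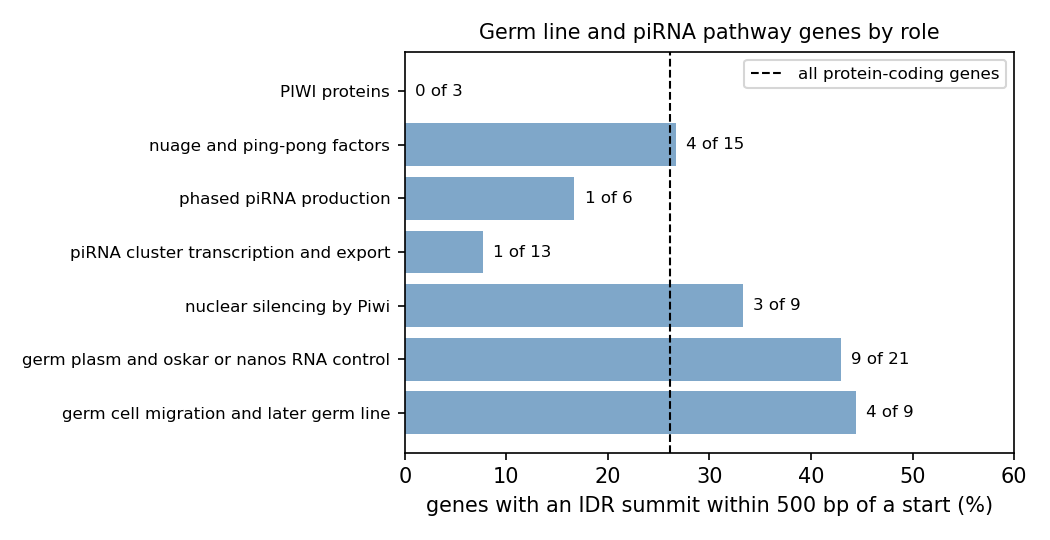
Share of protein-coding genes in each role with an IDR summit within 500 bp of a start (%, bars, with counts), beside the share of all protein-coding genes (dashed line, 26.1%). Germ cell migration and later germ line (44.4%), germ plasm (42.9%), nuclear silencing (33.3%) and nuage and ping-pong (26.7%) lie above the line, and phased production (16.7%), cluster transcription and export (7.69%) and the PIWI genes (0%) lie below it. The bars include the 10 genes, among them vas, tapas and squ in nuage and ping-pong.

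The strongest promoter summit of the longer list was at bgcn, which acts with Bam in germ cell differentiation (signal 1418, rank 170, 147 bp from a start). It ranked 239 in replicate 1 and 120 in replicate 2. Next was papi, a Tudor domain protein of piRNA trimming (signal 1344, rank 193), at rank 133 in replicate 1 and 495 in replicate 2. The lipid phosphate phosphatases Wunen and Wunen-2, which guide migrating germ cells, both had promoter summits, at wun (signal 1102, rank 281) and wun2 (signal 370.2, rank 2271). Of the factors of nuclear silencing, ctp, which encodes a dynein light chain, had a signal of 807 (rank 549), wde, a cofactor of the histone methyltransferase Eggless, 423.6 (rank 1799), and sov, a zinc finger protein, 277.3 (rank 3387). A much stronger peak lay inside wde (signal 2208, rank 66), and it ranked 74 and 64 in the replicates.

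Among germ plasm and RNA control genes the summits were at orb (rank 1058), exu (rank 1732), tral (rank 1983), BicD (rank 2468), pum (rank 3878), par-1 (rank 5473) and spir (rank 6367), besides gcl and nos. The orb summit was 49 bp from a start of Cdc16, and that of tral 40 bp from a start of sti. Replicate 1 had no summit nearer than 9337 bp to the tral summit. Nbr, the exonuclease Nibbler that trims piRNAs, had a summit 52 bp from its start (signal 178.7, rank 5650). The export factor gene Nxf3 was counted through a summit 472 bp upstream that was 29 bp from a start of Meics (signal 300.4, rank 3067). The noncoding piRNA cluster lncRNA:flam had an IDR summit 229 bp upstream of a start (signal 184.4, rank 5471), at rank 4733 in replicate 1 and 9215 in replicate 2. Without a promoter summit but with an IDR summit inside the gene were Tre1, a receptor of germ cell migration (signal 1793, rank 101), cup (signal 264.2, rank 3609), capu (signal 173.2, rank 5846) and bru1 (signal 142.4, rank 7242).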

How the data were processed

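Peak lists of 2 biological replicates of ADD1-GFP embryos were used, on assembly dm6, which is genome Release 6, per the labels. The deposited lists are 1 for each replicate, 1 joint list called on both alignments and 1 IDR list. The sources used here do not give the caller, aligner, filters or depth. Signal values are the authors' own, as deposited, and so are the −log10 q-values, which were capped at 4.13 for 6739 IDR peaks and were not used. Signal served only to rank peaks within a list.

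Summits were compared with FlyBase annotation release 6.54 in Python 3.11.15 with pandas 2.3.3, NumPy 2.4.6 and matplotlib 3.10.9. A promoter is 500 bp to each side of any annotated start. The matching of summits to genes was tested on simulated data. Of 77 listed names, 70 matched a symbol, 5 a synonym and 1 a symbol in other case, and nos was matched by hand to nanos. The genes, lists and words were chosen with earlier results of these data known. Named were the 10 genes, genes with a start within 1000 bp of a member's start or counted summit, listed genes with an IDR promoter summit, and up to 5 others with the strongest summit inside. Genes that lie near the summits or inside the stretches without summits were also named, after their values were seen. Alternatives were other promoter widths, lists, replicates and assignments. The spread between 2 replicates cannot be told from technical spread. The values of 1 listed gene are not reported here.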

Additional observations from a re-analysis of the deposited data

How the results depend on the processing

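The count of 5 members with a promoter summit was 4 with a promoter of 200 bp or with nearest starts only, where nos dropped out, and 4 with outermost 5' ends only, where tapas dropped out. It was also 4 when the name nos was read as Nos, the nitric oxide synthase gene, an alternative chosen after seeing the data. It was 5 under the other alternatives. The count with summits inside the gene was 6 in the joint list, with AGO3 added. AGO3 spans 135 kb, against a median of 2.17 kb over coding genes. The share of all coding genes was not computed for this count, so it has no background. Of all coding genes, 26.1% had a promoter summit, and this share was 21.7% with a promoter of 200 bp, 29.5% with one of 1000 bp, 17.7% in the 3972 stronger IDR peaks, 37.9% in the joint list, 21.7% with nearest starts only and 23.8% with outermost 5' ends only. Leaving out replicate 1 gave 29.0% and leaving out replicate 2 gave 25.8%. These alternatives did not count the full list of the replicate kept, which gave 44.7% for replicate 2 and 38.0% for replicate 1. The wider list's count of 22 ranged from 17 (200 bp) to 30 (1000 bp and the joint list). No paired analysis was possible because there is 1 group. Depth is unknown, so a missing summit does not show that ADD1 was absent.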
